A study of Mus musculus with 8 samples.

Results

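Nucleoporins and nuclear transport factors were read as 55 genes, chosen by symbol from the 18533 gene symbols counted in mouse aortic smooth muscle cells (MASMCs). The symbols covered the numbered nucleoporins, the importins, exportins and transportins, and 12 further genes of the pore and the Ran cycle, and the rule used symbols alone, though it was set with earlier results of these data known. Of these 55 genes, 54 passed the filter on low counts and stood among the 13535 genes tested between the genotypes. Only *Kpna7*, an importin α known from oocytes and early embryos, failed the filter, with 0, 6, 4, and 0 estimated counts in the WT samples, in the order of their replicate numbers, and 0, 2, 3, and 2 in the *Hint1*-/- samples.

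The nuclear pore complex is a ring-shaped channel through the nuclear envelope. Its scaffold is built from the Y complex and the inner ring, and membrane nucleoporins anchor it. Nucleoporins rich in phenylalanine-glycine repeats fill the channel and, together with other proteins, form the cytoplasmic filaments and the nuclear basket. Importins carry proteins into the nucleus and exportins carry proteins and RNAs out of it, and the direction is set by Ran, a small GTPase that is bound to GTP in the nucleus, where RCC1 loads it, and to GDP in the cytoplasm, where RANGAP1 acts on it. HINT1, a small protein of the histidine triad family, is found in both compartments. The study proposes a part in its nuclear entry for NUP98, a nucleoporin of the channel that is found at both faces of the pore. That proposal rests on protein binding and on knockdown of NUP98, and the *Nup98* mRNA level in *Hint1*-/- cells does not test it.

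RNA-Seq was performed on primary MASMCs grown from aortas of young male mice, WT (n = 4) and *Hint1*-/- (n = 4). The *Hint1*-/- mice lack *Hint1* in the whole body rather than in 1 cell type. The paper names the thoracic aorta as the source in its methods and the whole aorta in its figure legends. Every sample had been exposed to PDGF-BB, a growth factor that drives smooth muscle cells out of the contractile state, at 20 ng/mL for 24 hours, so no unstimulated cells entered the comparison. The sources do not say whether the samples within a genotype came from separate mice or cultures, and the p values below measure the spread between these samples, which may be technical. The comparison asked which genes of the pore and of nuclear transport differed in mRNA level when *Hint1* was deleted.

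The files held 20778077 to 20888041 estimated counts per sample. *Hint1* lay between 2272 and 2364 counts in WT and between 713 and 778 in *Hint1*-/- samples, 32.1% of the WT level, so the groups matched their labels (log2 fold change −1.64, edgeR adjusted p = 6.77e-16). The source of the counts that remained in *Hint1*-/- samples was not tested, since the files give 1 value per gene. All listed smooth muscle markers were detected, and their summed level was 1352 to 1469 CPM (the count scaled to library size by edgeR) in WT and 1117 to 1207 CPM in *Hint1*-/- samples, with 5 of 7 genes lower and 1 higher at an adjusted p under 0.05. Of the other lists, 5 fibroblast markers summed to 1428 to 1538 CPM in WT and 2413 to 2538 CPM in *Hint1*-/- samples, 5 macrophage markers to 1887 to 2185 CPM and 1527 to 1623 CPM, 5 Schwann cell markers to 38.2 to 43.6 CPM and 8.51 to 10.8 CPM, and 6 endothelial markers to 5.15 to 7.94 CPM and 5.19 to 7.30 CPM. At an adjusted p under 0.05 in edgeR, 4 of the fibroblast markers were higher, all 5 macrophage markers and 4 of the Schwann cell markers were lower, and 0 of 5 tested endothelial markers differed. No listed marker was at 0 in every sample, and the part of these cell types in the results below was not tested. In bulk RNA, fewer cells of a type and less RNA per cell cannot be told apart.

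The nuclear transport machinery was expressed at every place in the pore and step of transport examined and differed little between the genotypes. In all, 6 genes passed the test, *Kpna2* and *Ranbp2* with higher and *Nup210*, *Rcc1*, *Rae1*, and *Xpot* with lower levels in *Hint1*-/- MASMCs, and the fitted differences of all 54 tested genes lay between −0.28 and 0.14 on the log2 scale. *Nup98* was not among those that passed.

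The promoters of *Kpna2* and *Nup98* are shown because *Kpna2* had the smallest adjusted p of the genes and *Nup98* is the nucleoporin that the study names beside HINT1. Each line holds the 250 bases upstream of an annotated start in RefSeq's GRCm38.p6, written 5′ to 3′ on the gene's own strand, the minus strand for both. Capitals mark 3 short motifs searched on both strands, CCAAT, GCCNNNGGC (the core read by AP-2 factors), and TTTGAA or its reverse complement (the cell cycle homology region, or CHR, of many mitotic genes), which was added after values had been seen.
Kpna2, chr11:106999526-106999775: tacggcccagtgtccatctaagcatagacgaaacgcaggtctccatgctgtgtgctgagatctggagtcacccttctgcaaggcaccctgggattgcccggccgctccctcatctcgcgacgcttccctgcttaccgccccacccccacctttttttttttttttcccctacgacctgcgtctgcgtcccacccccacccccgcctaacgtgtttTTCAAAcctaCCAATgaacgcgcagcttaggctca
Nup98, upstream start, chr7:102210167-102210416: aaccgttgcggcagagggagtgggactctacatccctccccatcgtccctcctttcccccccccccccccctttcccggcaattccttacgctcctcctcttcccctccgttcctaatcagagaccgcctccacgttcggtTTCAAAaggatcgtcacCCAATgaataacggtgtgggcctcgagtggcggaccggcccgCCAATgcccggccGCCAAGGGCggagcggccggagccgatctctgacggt
Nup98, downstream start, chr7:102209868-102210117: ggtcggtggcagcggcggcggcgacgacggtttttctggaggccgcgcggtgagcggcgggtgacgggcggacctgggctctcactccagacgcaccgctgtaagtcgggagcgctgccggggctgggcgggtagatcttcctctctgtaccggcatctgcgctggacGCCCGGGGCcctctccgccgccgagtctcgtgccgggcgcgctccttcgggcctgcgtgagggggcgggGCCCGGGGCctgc
The stretches of *Kpna2* and of the upstream start of *Nup98* held CCAAT and the CHR letters, and the latter also held the AP-2 core. That of the downstream start of *Nup98* held the AP-2 core but neither CCAAT nor the CHR letters. Among 51 promoter windows of 300 bases found for 44 of the 55 genes, 27.5% held the CHR letters and 45.1% held CCAAT, against 17.9% and 37.4% of all 32851 windows of that length. The AP-2 core occurred in 35.3% of the genes' windows against 16.6% of all windows. CACGTG, the E-box that MITF and USF factors read, occurred in 17.6% against 7.15%, among them windows of *Ranbp2*, *Xpot*, and *Ran*, and GCATGCGC, the core read by NRF1, in 11.8% against 2.71%, among them windows of *Rcc1*, *Ran*, and *Nup62*. All 32851 windows were taken whether or not their genes were expressed in these cells. No share matched for expression or base composition was computed, so these shares do not set the genes apart from other expressed genes. These letters describe the windows, and no binding was measured.

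Expression of the pore and of its transport factors spanned a wide range. Levels were compared between genes only per length, as CPM per kilobase of merged exons, averaged over the 8 samples. *Ran* stood highest at 150 CPM per kb, followed by *Kpnb1*, which encodes importin β1, at 101 CPM per kb, *Sec13*, a Y complex subunit that also serves in COPII vesicle coats, at 98.6 CPM per kb, *Kpna2*, which encodes an adaptor that binds nuclear localization signals, at 84.4 CPM per kb, and *Ipo5*, an importin of ribosomal proteins, at 68.8 CPM per kb. *Nup98* ranked 29th of 55 at 18.2 CPM per kb. The lowest tested genes were *Nup210l*, a relative of *Nup210* known from the testis, at 0.546 CPM per kb and *Nup210* at 1.80 CPM per kb. Merged exons include those of rare transcripts, and 17 of the 55 genes, *Kpna2*, *Nup98*, and *Ran* among them, had estimated counts that were not whole numbers in at least 7 of the 8 samples, as arises when reads are divided between transcripts or genes, so their levels carry that uncertainty.

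**Figure D1:**
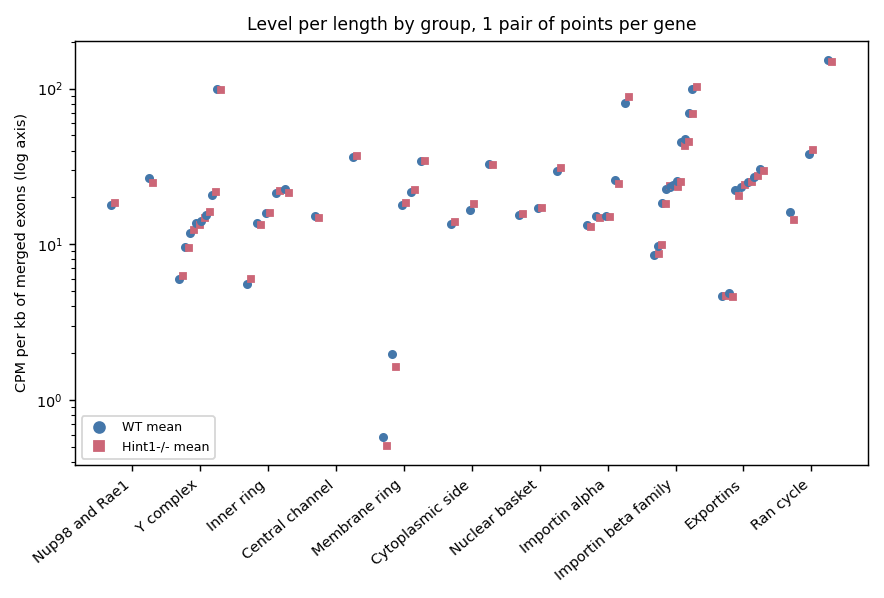
Mean level of each of the 54 tested genes in WT (blue circles) and *Hint1*-/- MASMCs (red squares), in CPM per kilobase of merged exons on a log axis, by place in the pore or role in transport. *Ran* lies at the top near 150 and *Nup210l* at the bottom near 0.546, and within each pair the genotypes lie close together.

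Together the 55 genes took 0.588% to 0.609% of each sample's counts. Their summed level was 5943, 6037, 5968, and 5964 CPM in WT replicates 1, 2, 3, and 4 and 5929, 5971, 5988, and 6035 CPM in the *Hint1*-/- replicates. The genotypes overlapped in this sum, as they did in the sum over the nucleoporins alone, 2070 to 2120 CPM in WT and 2084 to 2147 CPM in *Hint1*-/- samples, and in that over transport receptors and Ran cycle genes, 3873 to 3917 CPM and 3845 to 3889 CPM. These sums describe mRNA, and protein was not measured in these data.

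In the quasi-likelihood test of edgeR, 6 of 54 genes (11.1%) had an adjusted p under 0.05, against 21.5% of all genes tested. Of these, 2 were higher in *Hint1*-/- MASMCs (3.70%, against 11.2% of all genes) and 4 were lower (7.41%, against 10.2%). Since these genes have more counts than most, with a median mean count of 1936 against 557 for all genes, the count was also read among genes that averaged 500 counts or more per sample, where 5 of 50 passed against 26.6% of all such genes. This bound was chosen after the values had been seen. The genotypes did not overlap in CPM for 7 of 54 genes (13.0%, against 23.0% of all genes), which were *Kpna2*, *Nup210*, *Rae1*, *Xpot*, *Nup93*, *Kpna3*, and *Ipo7*. The count of genes that passed depended on single samples. It fell to 2 without *Hint1*-/- replicate 2, where the share of all genes fell to 18%. It fell to 3 without WT replicate 1 or WT replicate 3, where the share of all genes fell to 17.9% and 16.9%. *Kpna2* and *Nup210* passed under every alternative tried, with adjusted p of 0.000139 to 0.0107 and of 0.00498 to 0.0316.

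With the study's own limit of a 1.5-fold change in addition, 0 of 54 genes passed edgeR's test, against 2.83% of all genes tested. DESeq2, limma-voom, and glmTreat also gave 0, and 0 genes reached that fold with an unadjusted p under 0.05 in edgeR, where 11 (20.4%, against 32.8% of all genes) had such a p at any fold. The 95% interval of the log2 fold change lay within 1.5-fold of no change in both directions for 54 of 54 genes, against 85.9% of all genes, and the largest bound was 1.41-fold. Within 1.2-fold it lay for 52 of 54 genes, against 60.0% of all genes, and the exceptions were *Nup210* and *Nup210l*. Of the 54 log2 fold changes, 26 lay above 0 and 28 below, with a median of −0.0042 against 0.0003 over all genes. Their median size regardless of sign was 0.042 against 0.088. Among genes that averaged 500 counts or more, all 50 of these genes had intervals within 1.2-fold. Of all such genes, 98.5% had intervals within 1.5-fold and 84.5% within 1.2-fold. The median size there was 0.042 against 0.068 for all such genes, of which 56 of 7134 passed both limits.

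**Figure D2:**
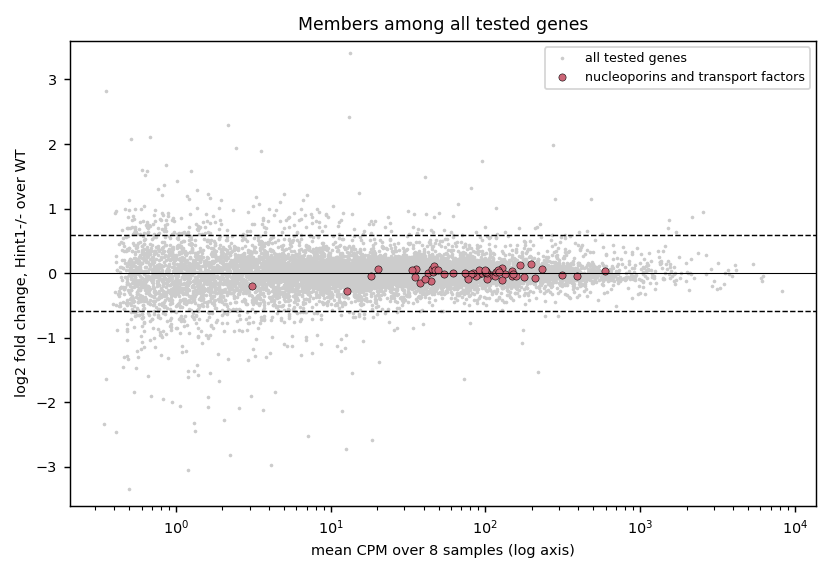
Log2 fold change of *Hint1*-/- over WT MASMCs from edgeR against mean CPM over the 8 samples on a log axis, for all 13535 genes tested (grey) and the 54 nucleoporins and transport factors (red); dashed lines mark a 1.5-fold change. The red points lie between −0.28 and 0.14, inside both dashed lines.

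*Nup98* encodes a nucleoporin with GLFG repeats that also acts in mRNA export and at chromatin. It lies on chr7:102119398-102210176 of mm10 on the minus strand. Its estimated counts were 3047, 3149, 3062, and 3088 in WT replicates 1, 2, 3, and 4 and 3057, 3194, 3050, and 3257 in the *Hint1*-/- replicates. *Hint1*-/- replicates 2 and 4 stood above every WT sample, and the other two lay within the WT range, so the groups overlapped. The level was 148 ± 1.80 CPM (SD, n = 4) in WT and 151 ± 5.07 CPM (SD, n = 4) in *Hint1*-/- MASMCs. The log2 fold change was 0.04 (SE 0.033, 95% interval −0.03 to 0.10, edgeR adjusted p = 0.493), and an exact two-sided permutation test gave p = 0.257. No difference in *Nup98* mRNA beyond the spread between samples was detected, and the interval leaves room for differences of up to 0.10 on the log2 scale. The sum cannot show whether single transcripts differed, since this locus also encodes NUP96 in a shared precursor and the files give 1 value per gene.

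*Rae1* encodes an mRNA export factor that binds NUP98. It lies on chr2:173000117-173015739 on the plus strand. Its counts were 970, 945, 1047, and 949 in WT replicates 1, 2, 3, and 4 and 930, 868, 875, and 895 in the *Hint1*-/- replicates. Each *Hint1*-/- sample lay below each WT sample, with *Hint1*-/- replicate 1 close to WT replicate 2. The level was 46.8 ± 2.28 CPM (SD, n = 4) in WT and 43.0 ± 1.34 CPM (SD, n = 4) in *Hint1*-/- MASMCs, and the log2 fold change was −0.12 (SE 0.042, edgeR adjusted p = 0.0486). This call stood at the edge of the threshold. The adjusted p was 0.122 in DESeq2, 0.0575 in limma-voom, and 0.0585 in edgeR without the filter on low counts, and it rose above the threshold, to at most 0.189 in edgeR, without WT replicate 1, WT replicate 3, or *Hint1*-/- replicate 2, 3, or 4.

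**Figure D3:**
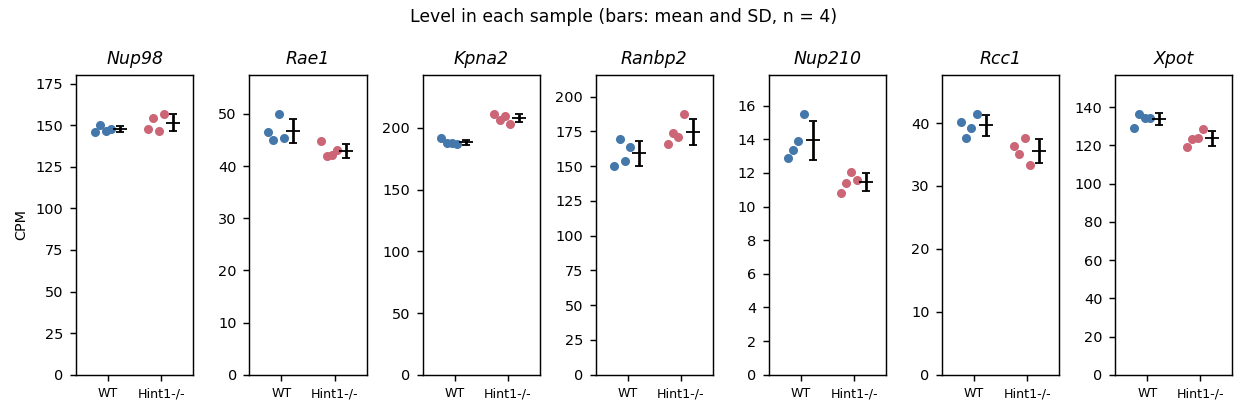
CPM in each sample of *Nup98* and of the 6 genes with an adjusted p under 0.05, in WT (blue) and *Hint1*-/- MASMCs (red), on linear axes that start at 0; black bars give the mean and SD (n = 4). *Kpna2*, *Nup210*, *Rae1*, and *Xpot* do not overlap between the genotypes, whereas *Nup98*, *Ranbp2*, and *Rcc1* do.

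Among the 15 scaffold and channel nucleoporins other than *Nup98*, 0 passed edgeR's test, against 21.5% of all genes. Of these 15, 2, *Nup93* and *Nup155*, had an unadjusted p under 0.05, against 32.8% of all genes. The Y complex, which coats the membrane at both faces of the pore, had 0 of 8 genes past the threshold and a median log2 fold change of 0.05, from −0.04 for *Nup37* to 0.07 for *Nup43*. The inner ring, which lines the central part of the pore, had 0 of 5, with *Nup93* at −0.09 (adjusted p = 0.0792 from edgeR) and *Nup155* at 0.12 (adjusted p = 0.0605 from edgeR). *Nup93*, a linker between the scaffold and the channel, had 1593 to 1763 counts in WT and 1513 to 1574 in *Hint1*-/- samples, which did not overlap. *Nup155*, which bridges the scaffold and the membrane, had 890 to 971 counts in WT and 956 to 1060 in *Hint1*-/- samples, which did overlap. Besides *Nup98*, the channel proteins that carry phenylalanine-glycine repeats and matched the symbol rule, *Nup62* and *Nup54*, stood at 0.02 and −0.06.

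The membrane ring held the largest fitted difference. *Nup210*, which encodes a single-pass membrane nucleoporin known from muscle cell differentiation, lies on chr6:91013068-91116829 on the minus strand. Its counts were 269, 281, 291, and 324 in WT replicates 1, 2, 3, and 4 and 224, 236, 251, and 240 in the *Hint1*-/- replicates. The *Hint1*-/- samples were the lowest of the 8, with no overlap. The level was 13.9 ± 1.14 CPM (SD, n = 4) in WT and 11.5 ± 0.520 CPM (SD, n = 4) in *Hint1*-/- MASMCs. It thus fell by 17.7%, a log2 fold change of −0.28 (SE 0.070, 95% interval −0.43 to −0.13, edgeR adjusted p = 0.00705). The other tested genes of the ring did not pass. *Ndc1* and *Pom121*, which anchor the pore in the membrane, stood at 0.04 and 0.03, *Aaas*, which encodes ALADIN, at 0.00, and *Nup210l* at −0.19 with only 51 to 77 counts per sample (adjusted p = 0.374 from edgeR).

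On the cytoplasmic side, *Ranbp2* was higher in *Hint1*-/- MASMCs. It encodes the large filament protein RANBP2, a SUMO ligase that binds Ran and SUMO-modified RANGAP1, and lies on chr10:58446920-58494356 on the plus strand. Its counts were 3129, 3558, 3217, and 3412 in WT replicates 1, 2, 3, and 4 and 3444, 3592, 3559, and 3896 in the *Hint1*-/- replicates. The groups overlapped, since *Hint1*-/- replicate 1 lay below WT replicate 2. The level was 159 ± 8.90 CPM (SD, n = 4) in WT and 175 ± 9.23 CPM (SD, n = 4) in *Hint1*-/- MASMCs, a log2 fold change of 0.13 (SE 0.043, edgeR adjusted p = 0.0338). The call was lost without WT replicate 1 or 3 or *Hint1*-/- replicate 2 or 4, with adjusted p up to 0.133 in edgeR, and with library sizes that left out the 20 most abundant genes (adjusted p = 0.0714 in edgeR). *Nup214* and *Nup88*, partners in mRNA and protein export at the same face, stood at 0.04 and −0.02. The nuclear basket, made of *Tpr*, *Nup153*, and *Nup50*, had 0 of 3 genes past the threshold (against 21.5% of all genes) and log2 fold changes of 0.06, 0.01, and −0.00.

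**Figure D4:**
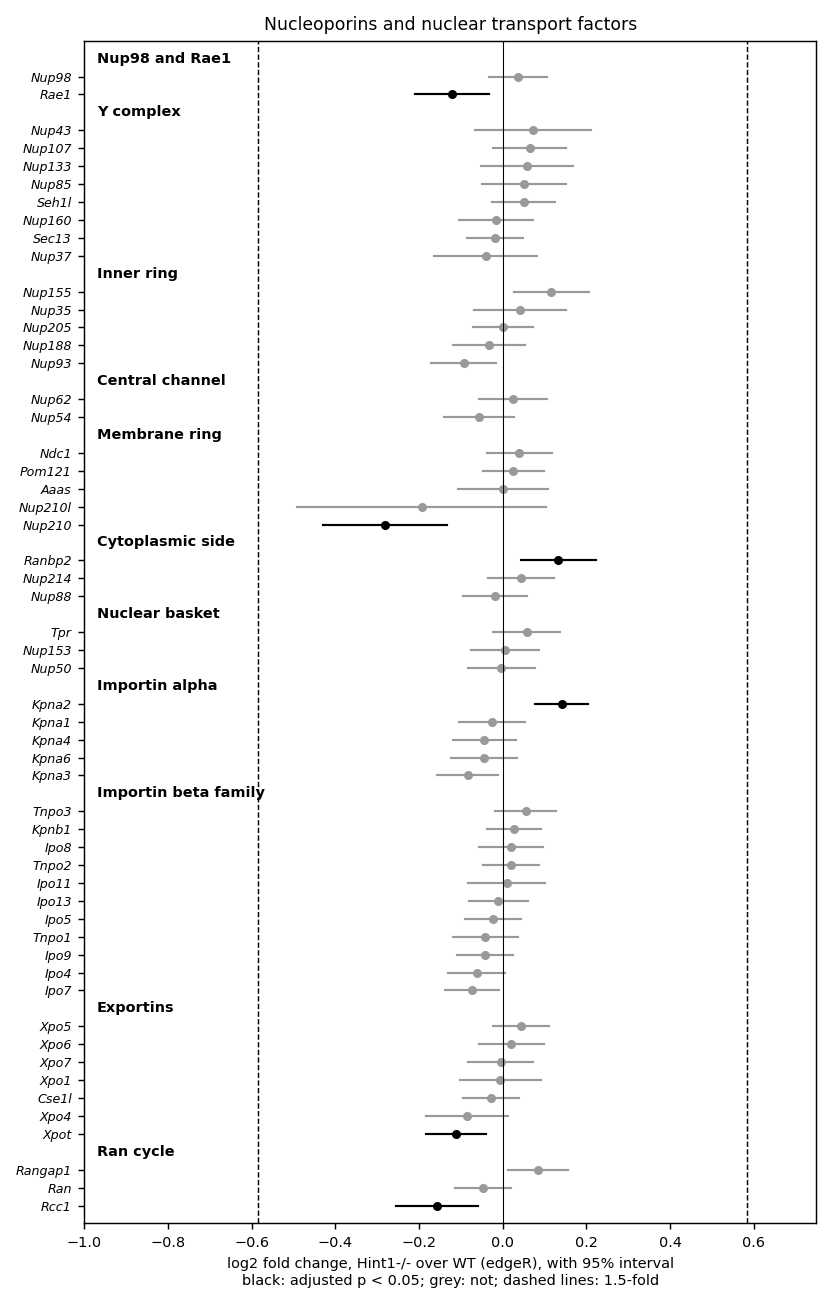
Log2 fold change of *Hint1*-/- over WT MASMCs from edgeR with its 95% interval for each of the 54 tested genes, grouped by place in the pore or role in transport; black marks an adjusted p under 0.05, grey the rest, and dashed lines a 1.5-fold change. The 6 black points are *Rae1*, *Nup210*, *Ranbp2*, *Kpna2*, *Xpot*, and *Rcc1*, and every interval ends inside the dashed lines.

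Among the importin α adaptors, which bind the classical nuclear localization signal and join the cargo to importin β1, *Kpna2* was higher in *Hint1*-/- MASMCs. It lies on chr11:106988629-106999541 on the minus strand. Its counts were 3994, 3938, 3932, and 3901 in WT replicates 1, 2, 3, and 4 and 4386, 4279, 4359, and 4227 in the *Hint1*-/- replicates. The *Hint1*-/- samples were the highest of the 8, with no overlap. The level was 189 ± 2.07 CPM (SD, n = 4) in WT and 208 ± 3.46 CPM (SD, n = 4) in *Hint1*-/- MASMCs, which is 10.3% higher, a log2 fold change of 0.14 (SE 0.030, 95% interval 0.08 to 0.20, edgeR adjusted p = 0.00222). The other tested adaptors, *Kpna1*, *Kpna3*, *Kpna4*, and *Kpna6*, had log2 fold changes of −0.03, −0.08, −0.04, and −0.05, and none passed (the smallest adjusted p from edgeR was 0.0967, for *Kpna3*). *Kpna2* made up 53.6% ± 0.931 (SD, n = 4) of the summed importin α level per length in WT, from 52.4% to 54.5%, and 56.9% ± 0.924 (SD, n = 4) in *Hint1*-/- MASMCs, from 55.9% to 57.8%.

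*Kpna2* is known to be high in dividing cells, and a list of 35 proliferation genes was therefore read beside it. Of these, 16 were higher (45.7%, against 11.2% of all genes) and 3 lower (8.57%, against 10.2%) at an adjusted p under 0.05 in edgeR, and 0 also passed the 1.5-fold limit. The list was split after its values had been seen. Among its 18 mitotic genes 16 were higher, with a median log2 fold change of 0.18. The count of higher mitotic genes was 13 to 16 under the other settings and 10 to 16 with 1 sample left out. The 10 were found without WT replicate 1, where 17.9% of all genes passed in either direction. The 3 largest differences of the list were those of *Cenpf*, a kinetochore protein, at 0.41, of *Kif20a*, a kinesin of cytokinesis, at 0.26, and of *Plk1*, a mitotic kinase, at 0.26. Among its 17 replication genes 0 were higher and 3 were lower, namely *Ccne1* at −0.22, *Pcna* at −0.17, and *Mcm2* at −0.11, with a median of −0.06. The part of the share of dividing cells in the *Kpna2* difference was not tested.

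The importin β family carries cargo through the pore directly or with an adaptor, and 0 of its 11 genes passed edgeR's test, with 1, *Ipo7*, at an unadjusted p under 0.05 (against 21.5% and 32.8% of all genes). Its median log2 fold change was −0.01, from −0.07 for *Ipo7* (adjusted p = 0.0967 from edgeR) to 0.05 for *Tnpo3*, which imports splicing factors. *Ipo7*, an importin of ribosomal proteins and histone H1, had 4407 to 4609 counts in WT and 4178 to 4298 in *Hint1*-/- samples, which did not overlap. *Kpnb1*, with 12100 to 12531 counts in WT and 12240 to 12820 in *Hint1*-/- samples, stood at 0.03, and *Tnpo1*, which imports RNA-binding proteins, at −0.04.

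Of the 7 exportins, *Xpot*, which carries tRNA out of the nucleus, was lower in *Hint1*-/- MASMCs. It lies on chr10:121587380-121626332 on the minus strand. Its counts were 2692, 2866, 2812, and 2808 in WT replicates 1, 2, 3, and 4 and 2468, 2553, 2580, and 2668 in the *Hint1*-/- replicates. The groups did not overlap, though *Hint1*-/- replicate 4 lay just below WT replicate 1. The level was 134 ± 3.19 CPM (SD, n = 4) in WT and 124 ± 3.87 CPM (SD, n = 4) in *Hint1*-/- MASMCs, a log2 fold change of −0.11 (SE 0.034, edgeR adjusted p = 0.0245). The call was lost without WT replicate 2 or 3 or *Hint1*-/- replicate 1 or 2, with adjusted p up to 0.092 in edgeR. *Xpo1*, the main exporter of proteins with a nuclear export signal, stood at −0.01, *Cse1l*, which returns importin α to the cytoplasm, at −0.03, and *Xpo5*, which exports microRNA precursors, at 0.04, the highest of the 7.

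In the Ran cycle, *Rcc1* was lower in *Hint1*-/- MASMCs. It encodes the chromatin-bound exchange factor that loads Ran with GTP and lies on chr4:132331919-132353605 on the minus strand. Its counts were 839, 789, 821, and 866 in WT replicates 1, 2, 3, and 4 and 753, 725, 783, and 691 in the *Hint1*-/- replicates. After scaling to library size the groups overlapped by a narrow margin, since *Hint1*-/- replicate 3 at 37.65 CPM lay above WT replicate 2 at 37.60 CPM. The level was 39.6 ± 1.64 CPM (SD, n = 4) in WT and 35.6 ± 1.86 CPM (SD, n = 4) in *Hint1*-/- MASMCs, a log2 fold change of −0.16 (SE 0.047, edgeR adjusted p = 0.0218). The call was lost in DESeq2 (adjusted p = 0.051) and in edgeR without WT replicate 1 or 4 or *Hint1*-/- replicate 2 or 4, with adjusted p up to 0.0809. *Rangap1*, which had 2587 to 2650 counts in WT and 2626 to 2871 in *Hint1*-/- samples, stood at 0.08 (adjusted p = 0.0916 from edgeR), and *Ran*, with 8181 to 8532 counts in WT and 7813 to 8207 in *Hint1*-/- samples, at −0.05 (adjusted p = 0.324 from edgeR).

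For *Nup98* and the 6 genes that passed edgeR's test, log2 CPM was also compared by an exact two-sided permutation test. The exact tests gave p = 0.0286 for *Kpna2*, *Nup210*, *Rae1*, and *Xpot*, the smallest value that 4 against 4 samples allow, and p = 0.0571 for *Ranbp2* and *Rcc1*. Of the 7 genes, 6 were chosen by edgeR's test on the same samples, so these values are no further evidence for them.

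Genes that serve nuclear transport, mRNA export, the nuclear lamina, or SUMO modification without matching the symbol rule were read as a separate list. Of 54 listed genes 49 were tested, and 4 (8.16%, against 21.5% of all genes) passed edgeR's test, 0 of them with a 1.5-fold change. Without WT replicate 2, 10 passed, against 21.4% of all genes. *Sun1*, which links the lamina to the cytoskeleton, had 1104 to 1191 counts in WT and 1256 to 1297 in *Hint1*-/- samples, a log2 fold change of 0.19 (SE 0.036, edgeR adjusted p = 0.000908). *Banf1*, a chromatin-binding protein of nuclear envelope assembly, had 1598 to 1738 counts in WT and 1402 to 1513 in *Hint1*-/- samples, a log2 fold change of −0.18 (SE 0.037, edgeR adjusted p = 0.00176). For both genes the genotypes did not overlap. *Akirin2*, which directs proteasomes into the nucleus, stood at 0.14, and *Mcm3ap*, an mRNA export factor that was named after its value had been seen, at 0.12. The list also held pore genes whose symbols the rule missed, so the groups above are not complete. Of these, *Nupl1*, *Nupl2*, and *Ahctf1* stood at 0.05, −0.10, and 0.10, and none passed edgeR's test. They were named after their values had been seen.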

How the data were processed

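RNA-Seq of 8 MASMC samples, 4 per genotype as the sample labels give it, was analysed. The deposited values were estimated counts per gene symbol, which the authors made from reads aligned to mm10 and did not normalize. The paper names HISAT2, and the submitters' processing notes name Bowtie2, RSEM 1.3.1, and DESeq2 1.4.5 without their roles. Values were rounded to whole numbers. In edgeR, low counts were removed by filterByExpr, TMM factors were applied, and the quasi-likelihood test (glmQLFit, glmQLFTest, two-sided) had genotype as its only term, with Benjamini-Hochberg adjustment over all genes tested. A gene passed at an adjusted p under 0.05, and the further limit was a 1.5-fold change. The SE is the size of the log2 fold change divided by the square root of F, and 95% intervals use the fit's total degrees of freedom. Log2 CPM used a prior count of 2. Versions were edgeR 4.0.16, DESeq2 1.42.0, limma 3.58.1, R 4.3.3, and matplotlib 3.10.9, and the scripts were tested on simulated data.

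The genes and lists were chosen with earlier results of these data known. Full values were given for *Nup98*, *Rae1*, and, of the genes that passed with a mean of at least 50 counts, up to 12 with the largest differences (6 passed, *Rae1* included). From the 2 further lists the 3 largest differences that passed were named. Positions and exon lengths came from GENCODE M21, of the build GRCm38 (mm10), by gene symbol, and promoters from RefSeq's GRCm38.p6. Protein sequences were not used here. No molecular identifiers are described, so counts are not independent molecules. Alternatives were DESeq2's size factors, upper-quartile normalization, library sizes that left out the 20 most abundant genes, edgeR without the filter, a minimum of 10 counts in each sample, a replicate block, DESeq2, limma-voom, glmTreat with the fold limit, and each sample left out in turn. Counts of mitotic genes under each of them were added after the data had been seen.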

Additional observations from a re-analysis of the deposited data

Results flagged for a closer look

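For 4 genes, 1 sample stood apart from the other 3 of its genotype, measured on log2 CPM as the gap to the nearest sample over the range of the group, and given in parentheses after the estimated counts. In *Hint1*-/- MASMCs, *Nup43* had 485 counts in replicate 1 against 411 to 418 in the others (0.869), *Tpr* had 5295 in replicate 4 against 4732 to 4798 (0.857), and *Nup37* had 391 in replicate 3 against 367 to 371 (0.843). In WT MASMCs, *Pom121* had 2148 counts in replicate 1 against 2077 to 2083 (0.88). Chance puts about 1 in 20 groups past the 95% critical value of this measure, which is 5.4 of the 108 groups examined, and 4 were found. None of these genes passed edgeR's test between the genotypes.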

How the results depend on the processing

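The number of genes with an adjusted p under 0.05 was 4 to 8 under the alternatives that kept all samples, against 15.6% to 22.8% of all genes, and 2 to 6 with 1 sample left out, against 16.5% to 21.4%. With library sizes that left out the 20 most abundant genes, 1 gene was higher and 7 were lower. Of all genes, 21.8% passed there in either direction. The median log2 fold change of the 54 genes moved to −0.022, while that of all genes moved to −0.018. DESeq2 gave 2 lower genes, where 16.1% of all genes passed in either direction. The share of all genes in each direction was not computed under the alternatives. With 1 sample left out, 1 to 3 genes were higher and 1 to 3 lower, against 16.5% to 21.4% of all genes in either direction. Of the other nuclear transport genes 3 to 10 passed, and of the proliferation genes 12 to 18. The 10 were found without WT replicate 2 and the 12 without WT replicate 1. There 21.4% and 17.9% of all genes passed in either direction. The count past both thresholds was 0 under each of 17 alternatives. The cause of these shifts was not tested. *Nup98* kept a log2 fold change of 0.02 to 0.05 and adjusted p of 0.35 to 0.788 under all 16 alternatives, and none of the 6 genes that passed changed its direction under them. Samples with the same replicate number did not deviate together (correlations −0.045, 0.0814, 0.00875, and 0.023). These correlations cannot show whether the samples were prepared in pairs, which the labels do not say. With the replicate number as a replicate block, 7 genes passed, those 6 and *Nup155*. The planned protein features were not run. Depth limits the statements on *Kpna7*, with at most 6 counts, and on *Nup210l*.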
